A study of Mus musculus with 8 samples.

Results

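The genes described here are the Eif1a-like genes Gm2016, Gm8300, Gm2022 and Gm5662 together with other multicopy genes of the 2-cell embryo, Gm4340, Gm12794, B020004J07Rik, BC061212 and BC080695. They were chosen by their measured log2 difference between P150KD and siControl morulae on these same arrays, so their levels and differences are given as a description, with no p-value, and their limma calls are counted beside the share of all probes without being read as evidence. Of the 9 listed names, 7 joined to a RefSeq symbol or alias and 6 had probes, 11 probes in all among 55681 on the array. Gm12794 is named Pramel19 and B020004J07Rik is named Pramel17 in RefSeq, and these names are used below. Gm5662 had no probe joined to it, and BC061212 and BC080695 matched no symbol or alias and were not analysed here.

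P150KD embryos had received siRNA against P150 at the 1-cell stage, and siControl embryos had received a control siRNA. P150, encoded by Chaf1a, is part of CAF-1, which loads histones onto newly copied DNA. Both groups were in vitro fertilised mouse embryos kept in KSOM medium and taken as morulae at E3.0, with RNA of 10 pooled embryos on each one-colour array, 5 arrays of P150KD and 3 of siControl. The labels give no strain and do not say whether the arrays hold separate collections, so p-values reflect only how these samples vary, which may be technical. In a bulk sample, fewer cells of a type and less RNA per cell cannot be told apart.

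The Eif1a-like genes are relatives of eIF1A, which sits in the small ribosomal subunit and helps it to scan for the start codon. In the mouse they lie in clusters of near copies and are transcribed around genome activation at the 2-cell stage, together with genes linked to the retrotransposon MERVL. Pramel17 and Pramel19 belong to the PRAME-like family of leucine-rich repeat proteins, whose mouse members are active in germ cells and early embryos.

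All coordinates are those of GRCm38.p6. Gm8300 lies at chr12:87514316-87518265, Gm2016 at chr12:87874072-87877859, Gm2022 at chr12:87892834-87896722 and Gm5662 at chr12:88270635-88274497. Gm4340 lies at chr10:104194042-104196522. Pramel17 lies at chr4:101834969-101844022 and Pramel19 at chr4:101940407-101943183. The 250 bases before the gene start are shown for the members that have an entry in the RefSeq promoter table, and for BB287469, an Eif1a-like gene that is no member, because the text returns to what these stretches share. Each runs 5′ to 3′ on the strand of its gene, and capitals mark the letters GATTNAATC and TATAAG where they occur. The stretches are chr10:104193792-104194041 on the plus strand for Gm4340, chr4:101844023-101844272 on the minus strand for Pramel17, chr4:101940157-101940406 on the plus strand for Pramel19 and chr12:87816327-87816576 on the plus strand for BB287469.
Gm4340: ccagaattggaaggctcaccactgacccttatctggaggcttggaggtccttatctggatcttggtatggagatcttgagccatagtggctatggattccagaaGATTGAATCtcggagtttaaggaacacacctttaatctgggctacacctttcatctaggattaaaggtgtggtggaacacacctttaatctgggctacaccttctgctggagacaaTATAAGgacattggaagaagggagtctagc
Pramel17: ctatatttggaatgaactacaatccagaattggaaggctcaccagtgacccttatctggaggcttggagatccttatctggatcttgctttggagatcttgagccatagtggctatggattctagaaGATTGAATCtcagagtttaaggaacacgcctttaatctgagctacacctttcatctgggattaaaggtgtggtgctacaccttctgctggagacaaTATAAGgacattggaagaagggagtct
Pramel19: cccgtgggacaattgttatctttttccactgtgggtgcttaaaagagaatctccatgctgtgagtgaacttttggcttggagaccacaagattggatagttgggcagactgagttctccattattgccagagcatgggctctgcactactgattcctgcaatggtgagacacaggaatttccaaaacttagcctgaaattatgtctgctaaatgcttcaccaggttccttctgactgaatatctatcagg
BB287469: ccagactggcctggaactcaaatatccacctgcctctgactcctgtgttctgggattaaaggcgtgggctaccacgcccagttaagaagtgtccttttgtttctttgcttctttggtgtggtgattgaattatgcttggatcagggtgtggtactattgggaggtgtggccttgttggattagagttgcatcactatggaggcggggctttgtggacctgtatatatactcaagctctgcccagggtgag

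The stretches before Gm4340 and Pramel17 were close to each other in sequence although the genes lie on different chromosomes. In their best local alignment 218 of 247 columns were identical (88.3%). Over the whole stretch, identity was 79.9% between Gm4340 and Pramel17, 52.3% between Gm4340 and Pramel19, 51.4% between Pramel17 and Pramel19 and 49.0% between Gm4340 and BB287469. The alignment allowed gaps, and the identity of unrelated stretches was not measured. No likeness is therefore read from the values for Pramel19 and BB287469. The letters GATTNAATC and TATAAG were chosen after these stretches had been read, were searched on both strands and do not overlap each other. GATTNAATC starts at position -146 before Gm4340 and -123 before Pramel17, counted back from the gene start, and occurs in 81 of 32851 promoter stretches of this length (0.247%). TATAAG starts at positions -30 and -27 and occurs in 2184 stretches (6.65%). Both occur together in 29 stretches (0.0883%). Neither was found before Pramel19 or BB287469.

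On the arrays, 30348 probes were tested, those called well above background by the scanner software on 3 or more of 8 arrays, and all 11 member probes were among them. Levels are given as log2 of the processed signal over the array's own 75th percentile, so 0 is the signal of that percentile. It was 1078, 1066, 1152, 1078 and 1304 units on P150KD replicates 1 to 5 and 1150, 1143 and 819 on siControl replicates 1 to 3. The share of spots well above background ran from 50.1% to 55.9%, 0 spots were saturated, and precision is set by how few arrays there are. Chaf1a, the siRNA target, stood at -1.47, 0.52, -0.48, -1.45 and -0.23 on P150KD replicates 1 to 5, against 2.40, 2.09 and 2.27 on siControl replicates 1 to 3. It fell by 2.88 (SE 0.48, limma adjusted p = 0.0107) and was lower on 5 of 5 P150KD arrays. Chaf1b, the gene of another CAF-1 subunit, was also lower. Its brighter probe differed by -0.90 (SE 0.18, limma adjusted p = 0.0188) and its other probe by -0.97 (SE 0.17, limma adjusted p = 0.0132). Of morula markers 10 of 10 were tested, and their mean level was 3.42 to 4.13 on the P150KD arrays and 4.57 to 4.76 on the siControl arrays. Of these, 0 rose and 3 fell, against 10.5% of all genes lower: the keratin gene Krt18 by 3.09 (limma adjusted p = 0.00296), and the trophectoderm transcription factor genes Gata3 by 1.75 (limma adjusted p = 0.0456) and Tead4 by 0.87 (limma adjusted p = 0.0243). Their part in the members' levels was not tested.

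Every member stood higher in P150KD morulae, by 2.22 for Pramel17 up to 7.44 for one probe of Gm8300 on the log2 scale. The median difference over the 11 probes was 4.60, where the median over all 14601 tested genes was -0.24. Every P150KD array lay above every siControl array on 11 of 11 member probes, against 9.36% of all tested probes. Of the member probes, 9 of 11 passed the limma threshold as higher in P150KD, against 6.28% of all tested probes, and by the brightest probe of each gene 4 of 6 members passed, against 6.65% of genes. Those that did not pass were Gm4340 and Pramel17. Since this contrast chose the members, nothing is read from these counts.

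**Figure D1:**
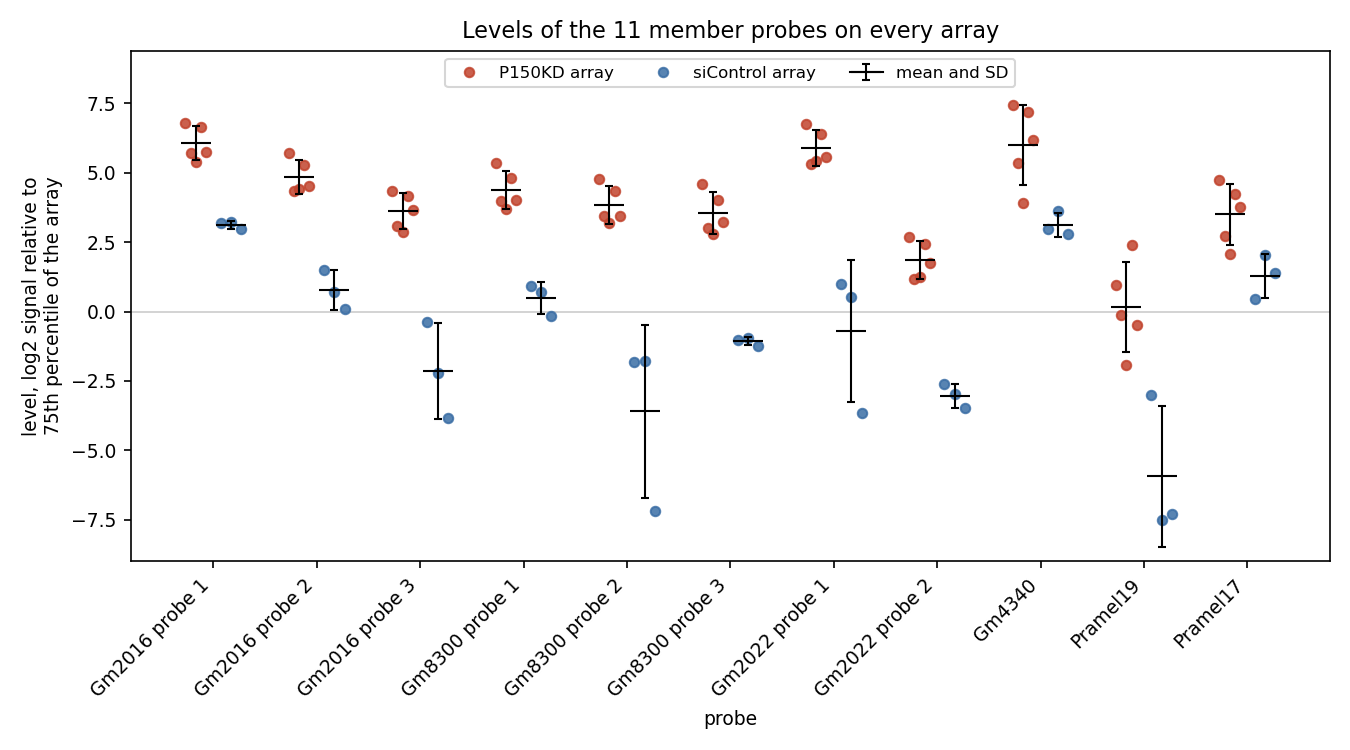
Level of each of the 11 member probes on every array, as log2 signal over the array's own 75th percentile, with P150KD arrays in red and siControl arrays in blue; horizontal bars are group means and vertical bars the SD (n = 5 and n = 3). On each probe the lowest P150KD array lies above the highest siControl array, with the closest approach for Pramel17 and Gm4340.

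Gm2016, an Eif1a-like gene, was read by 3 probes. The brightest read 6.79, 5.73, 5.39, 6.65 and 5.76 on P150KD replicates 1 to 5, against 3.19, 3.22 and 2.97 on siControl replicates 1 to 3. It averaged 6.06 ± 0.62 in P150KD (SD, n = 5) and 3.13 ± 0.13 in siControl (SD, n = 3), a difference of 2.94 (SE 0.36), or 7.67-fold. The gap between the groups was wider than the range of either, and the transcript was also well above background on all 3 siControl arrays, where this probe stood at the 76.9th percentile of tested probes, against the 94.1st in P150KD. The other 2 probes of Gm2016 were dimmer in siControl. One averaged 4.86 ± 0.60 in P150KD and 0.77 ± 0.71 in siControl, a difference of 4.08 (SE 0.44). The other read 4.35, 3.07, 2.85, 4.17 and 3.65 on the P150KD arrays, against -0.37, -2.22 and -3.83 on the siControl arrays, a difference of 5.76 (SE 0.75), which was 4.91 without siControl replicate 3 and 6.64 without siControl replicate 1. The 3 probes of this gene thus gave differences of unequal size.

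Gm8300, another Eif1a-like gene, also had 3 probes. The brightest read 5.36, 3.98, 3.68, 4.81 and 4.03 on P150KD replicates 1 to 5, against 0.94, 0.71 and -0.17 on siControl replicates 1 to 3. It averaged 4.37 ± 0.69 in P150KD and 0.49 ± 0.58 in siControl, a difference of 3.88 (SE 0.45), or 14.7-fold. The lowest P150KD array was still well clear of the highest siControl array. A second probe averaged 3.54 ± 0.76 in P150KD and -1.06 ± 0.16 in siControl, a difference of 4.60 (SE 0.43). The third averaged 3.85 ± 0.69 in P150KD and -3.59 ± 3.11 in siControl, a difference of 7.44 (SE 1.23). That last value rested on siControl replicate 3, which read -7.18 and was not well above background, and without it the difference was 5.64. It was 8.33 and 8.35 without siControl replicates 1 and 2 in turn.

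Gm2022, the last Eif1a-like gene measured, had 2 probes. The brighter read 6.77, 5.31, 5.44, 6.39 and 5.58 on P150KD replicates 1 to 5, against 0.99, 0.54 and -3.66 on siControl replicates 1 to 3. It averaged 5.90 ± 0.64 in P150KD and -0.71 ± 2.56 in siControl, a difference of 6.61 (SE 1.03). Without siControl replicate 3 it was 5.13, and without siControl replicates 1 and 2 in turn it was 7.46 and 7.23. The P150KD arrays kept within 1.46 of each other, while siControl replicate 3 lay far below the other two. The dimmer probe averaged 1.86 ± 0.68 in P150KD and -3.03 ± 0.43 in siControl, a difference of 4.88 (SE 0.42), with siControl replicate 3 again lowest. Gm2016, Gm8300 and Gm2022 belong to a family of near copies, and the probe sequences were not used here, so how far each probe also reads the others was not tested.

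Gm4340 is a multicopy gene whose role is not given here. Its single probe read 7.46, 5.36, 3.90, 7.18 and 6.17 on P150KD replicates 1 to 5, against 2.97, 3.61 and 2.80 on siControl replicates 1 to 3. It averaged 6.01 ± 1.44 in P150KD and 3.13 ± 0.43 in siControl, a difference of 2.89 (SE 0.80), or 7.40-fold. P150KD replicate 3 came close to siControl replicate 2, and the P150KD arrays ranged over 3.56, more than the 1.36 to 1.81 of the Eif1a-like probes. Gm4340 stands in a tandem array of 7 genes that start 8509 or 8510 bases apart and are 2439 to 2481 bases long, and it was the 1 gene of the array with a probe of its own. The 250 bases before its start were 100% identical to those of Gm21312 and 99.6% identical to those of Gm21293, Gm8764, Gm21304 and Gm20765, and which of these copies the probe reads was not tested.

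The PRAME-like members had 1 probe each. Pramel17 read 4.73, 2.72, 2.06, 4.23 and 3.76 on P150KD replicates 1 to 5, against 0.44, 2.03 and 1.38 on siControl replicates 1 to 3. It averaged 3.50 ± 1.09 in P150KD and 1.28 ± 0.80 in siControl, a difference of 2.22 (SE 0.67), or 4.65-fold. The groups nearly met, with P150KD replicate 3 just above siControl replicate 2. Pramel19 read 0.97, -0.12, -1.94, 2.39 and -0.48 on P150KD replicates 1 to 5, against -3.0, -7.52 and -7.29 on siControl replicates 1 to 3. It was well above background on all 5 P150KD arrays and on 1 of 3 siControl arrays, replicate 1. Its means were 0.16 ± 1.62 in P150KD and -5.94 ± 2.55 in siControl, a difference of 6.10 (SE 1.30), which came to 3.16 with only the arrays well above background. Without siControl replicate 1, 2 or 3 it was 7.57, 5.31 or 5.42.

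The members shared much of their order of the P150KD arrays. Many of the 11 probes belong to near copies whose cross-reading was not tested, so they are not separate observations. Agreement between members was uneven. Pearson r over the 8 arrays, after each group mean had been subtracted, ran from 0.16 for Pramel17 and Pramel19 to 0.92 for Gm2016 and Gm4340. P150KD replicate 1 was the highest array on 10 of 11 probes and the second highest on the other, and P150KD replicate 4 was the highest on 1 and the second highest on 10. The lowest P150KD array was replicate 3 on 8 probes and replicate 2 on 3, and siControl replicate 3 was the lowest siControl array on 9. The highest siControl array was replicate 1 on 6 probes and replicate 2 on 5. The mean level of the 6 members, each by its brightest probe, was 5.35, 3.83, 3.09, 5.27 and 4.14 on P150KD replicates 1 to 5, against 0.92, 0.43 and -0.66 on siControl replicates 1 to 3. P150KD replicates 1 and 4, the highest, were also the arrays with the lowest Chaf1a, at -1.47 and -1.45. Replicate 3, the lowest, had a Chaf1a level of -0.48, below those of replicates 2 and 5, so the order of the other 3 arrays did not mirror that of Chaf1a.

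**Figure D2:**
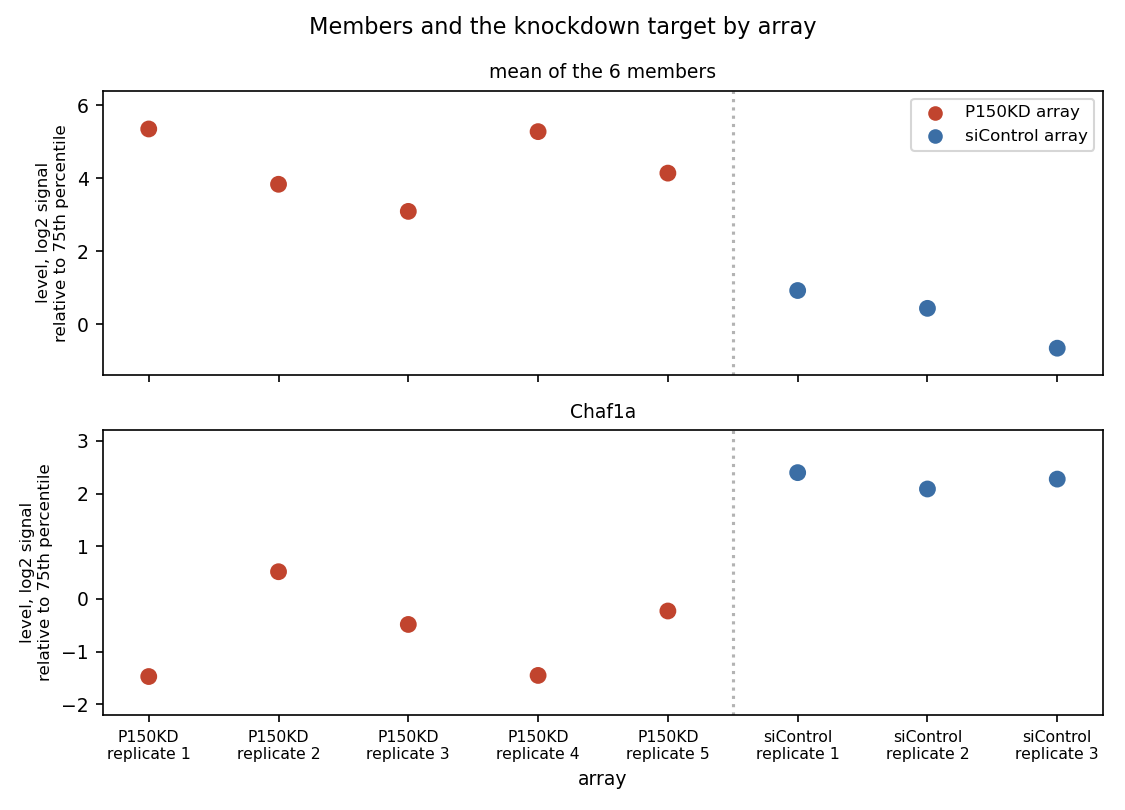
Mean level of the 6 members (upper panel) and level of Chaf1a (lower panel) on each array, both as log2 signal over the array's own 75th percentile, with P150KD arrays in red and siControl arrays in blue. P150KD replicates 1 and 4 hold the highest member means, 5.35 and 5.27, and the lowest Chaf1a levels.

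The arrays were in 2 columns of 1 slide, with P150KD replicate 1 beside the 3 siControl arrays and P150KD replicates 2 to 5 in the other column, which held no control. Within the first column, P150KD replicate 1 exceeded the siControl mean by 3.45 to 8.38 on the 11 probes. P150KD replicates 2 to 5 exceeded it by 1.91 to 7.21.

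The genes whose levels followed the members most closely were sought among 14595 tested genes that are no member, by Pearson r over the 8 arrays after each group mean had been subtracted. They were Dhx33 (r = 0.978), Plekhh1 (0.973), Lmx1a (0.960), Dusp18 (0.949) and Bcl7b (0.947). These values describe a rank among many genes that share the same arrays and scaling. Their group differences were of either sign. Dhx33, an RNA helicase gene, fell by 0.72 (SE 0.19, limma adjusted p = 0.0447), and Dusp18, which encodes a dual-specificity phosphatase, fell by 2.03 (SE 0.53, limma adjusted p = 0.0447). Plekhh1 differed by 0.08, Bcl7b by 0.65 and Lmx1a by 2.63, and none of the 3 passed (limma adjusted p from 0.21 to 0.853). Lmx1a was well above background on 4 of 5 P150KD and 2 of 3 siControl arrays. Its difference was 4.23 without P150KD replicate 3 and 0.68 without siControl replicate 3.

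The wider Eif1a-like family was covered thinly, since 2 of 29 further names looked for had a probe of their own. Among these names, Gm3139 is a RefSeq alias of the PRAME-like gene Pramel42 and had no probe. BB287469 read higher in P150KD morulae. It lies in the same stretch of chromosome 12 as the Eif1a-like members. How far its probes also read those near copies was not tested. Its brighter probe read 6.37, 5.15, 5.10, 5.83 and 5.08 on P150KD replicates 1 to 5, against 2.12, 0.64 and -0.72 on siControl replicates 1 to 3, a difference of 4.83 (SE 0.63, limma adjusted p = 0.00515) that was 5.55 without siControl replicate 1 and 4.13 without siControl replicate 3. P150KD replicates 1 and 4 were again the highest and siControl replicate 3 the lowest. The other probe of BB287469 differed by 6.62 (SE 1.01, limma adjusted p = 0.00813), by 7.61 without siControl replicate 1, and by 5.22 without siControl replicate 3, which was not well above background. Gm5039 averaged 1.90 ± 0.93 in P150KD and -0.04 ± 0.42 in siControl, a difference of 1.94 that did not pass (SE 0.54, limma adjusted p = 0.0527). Without P150KD replicate 2 both of these copies passed.

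The general factors from which these genes take their name stood slightly lower in P150KD, and none of the differences passed. Of 5 genes for eIF1, eIF1A and related proteins, 0 passed the limma threshold in either direction and 2 had an unadjusted p under 0.05. Eif1a, the autosomal gene for the start-codon scanning factor eIF1A, averaged 6.65 ± 0.24 in P150KD and 7.17 ± 0.16 in siControl, a difference of -0.52 (SE 0.20, limma adjusted p = 0.122). Its X-linked counterpart Eif1ax differed by -0.47 (limma adjusted p = 0.176). Eif1ad, which encodes a protein with an eIF1A-like domain, differed by -0.53 (limma adjusted p = 0.0593). Eif1 and Eif1b, the genes of the partner factor eIF1, differed by -0.27 (limma adjusted p = 0.402) and -0.06 (limma adjusted p = 0.821). The median of the 5 was -0.47, where that of all tested genes was -0.24. With arrays scaled to housekeeping genes, the median of all genes moved to 0.25 and that of these 5 to 0.02, with 3 of 5 above 0. The housekeeping list itself was not level between the groups, since 1 of its 15 genes rose and 5 fell in P150KD.

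Of 38 other translation initiation genes tested, 0 rose and 4 fell, about the same share as the 10.5% of all genes that were lower. Their median was -0.30, near the -0.24 of all tested genes, so no fall of the list as a whole is read from this count. Those that fell were Eif4ebp2, which keeps the cap-binding factor eIF4E from binding eIF4G (-0.90, SE 0.18, limma adjusted p = 0.0196), Eif3k, a subunit of eIF3 (-0.81, SE 0.19, adjusted p = 0.0335), Denr, a recycling factor (-0.73, SE 0.18, adjusted p = 0.0385), and Eif2b3, a subunit of the exchange factor eIF2B (-0.89, SE 0.23, adjusted p = 0.0404). These falls did not hold with every scaling. With arrays scaled to housekeeping genes 3 genes rose and 0 fell, and the median was 0.19. With quantile normalization, 2 rose and 1 fell, and with any 1 array left out 0 to 2 fell.

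Many PRAME-like genes other than the members rose. Of 27 PRAME-like and oogenesin genes tested, 14 rose, all of them Pramel genes, and 0 fell, against 6.65% of all genes higher, with a median of 1.19. The list was chosen with earlier results of these data known, so the count is a description. How far these probes also read each other's genes or the PRAME-like members was not tested. Among the 14, Pramel32 was well above background on 3 P150KD and 0 siControl arrays, and was at least 1.41-fold higher. Pramel31 averaged 3.73 ± 1.17 in P150KD and -1.13 ± 1.03 in siControl, a rise of 4.87 (SE 0.75, limma adjusted p = 0.00822). Pramel16 rose by 4.48 (SE 0.78, limma adjusted p = 0.0127; 3.82 without siControl replicate 1), Pramel20 by 3.99 (SE 0.71, limma adjusted p = 0.0133) and Pramel30 by 1.42 (SE 0.26, limma adjusted p = 0.0141). Of the 27, 13 did not pass, and 7 averaged lower in P150KD than in siControl. The count of rises was 4, 7 and 5 without siControl replicate 1, 2 or 3, and 6 and 7 without P150KD replicate 1 or 4. It was 8 with arrays scaled to the median. A block for the slide column, described above, sets P150KD replicate 1 alone against the siControl arrays, so no count is given for it.

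**Figure D3:**
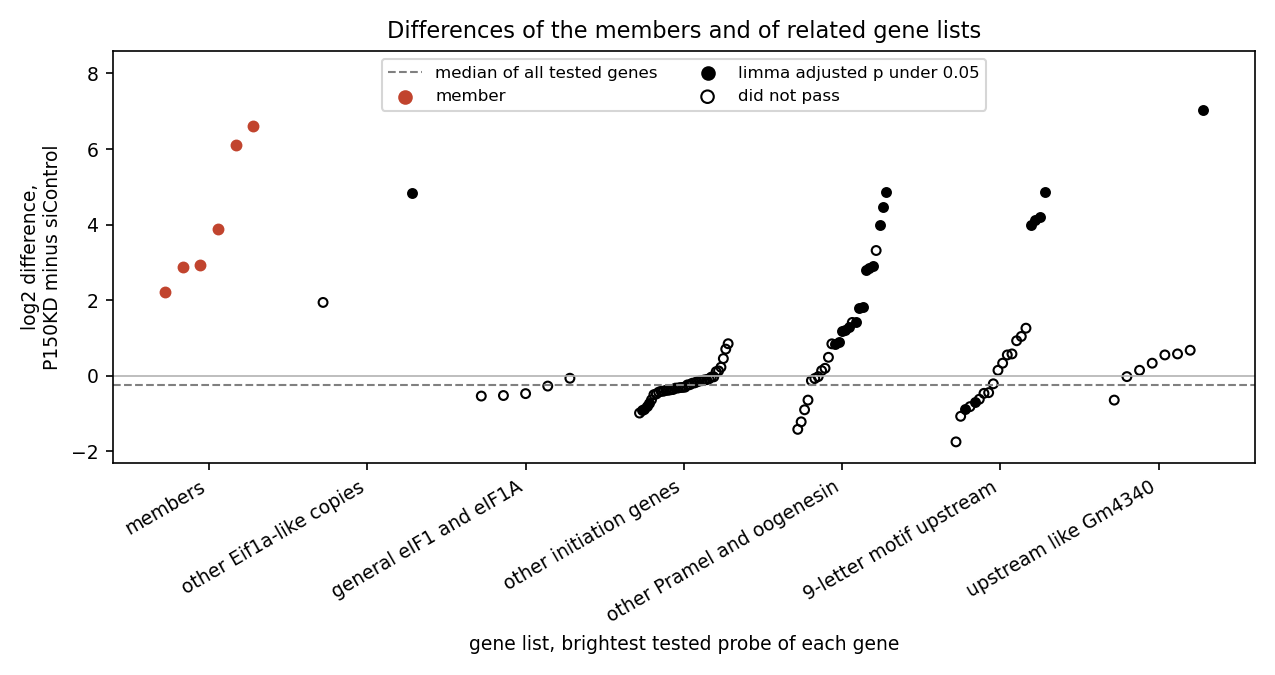
Log2 difference, P150KD minus siControl, of every tested gene of each list, by its brightest probe. Red points are members, shown without their limma calls; filled black points passed limma at an adjusted p under 0.05, open points did not, and the dashed line is the median of all tested genes at -0.24. The 5 general eIF1 and eIF1A genes lie below 0, while the other Pramel and oogenesin genes spread up to 4.87.

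Markers of other stages and cells moved as follows. Of 14 tested 2-cell stage markers 9 rose and 0 fell, against 6.65% of all genes higher. Their mean level was 0.39 to 2.56 on the P150KD arrays against -2.68 to -1.88 on the siControl arrays. Usp17lb and Tdpoz3 were well above background on 5 P150KD and 0 siControl arrays, so only the P150KD arrays brought them into the test. The list was chosen with earlier results of these data known, and nothing is read from its count. As for the members, P150KD replicates 1 and 4 were the highest arrays for this list and P150KD replicate 3 was the lowest P150KD array. Of 16 tested oocyte genes 3 rose and 0 fell, against the same 6.65%: the zona gene Zp3 by 2.60 (limma adjusted p = 0.00244), the chromatin gene Npm2 by 2.0 (limma adjusted p = 0.00557) and Zar1l, which was not well above background on any siControl array, by at least 6.41-fold (limma adjusted p = 0.0446). The mean level of the oocyte list was -1.31 to -0.50 on the P150KD arrays and -2.02 to -1.50 on the siControl arrays, and P150KD replicates 1 and 4, the highest for the members, were not its highest. Of granulosa and cumulus markers 3 of 8 were tested and 0 passed; Fshr, Has2, Ptx3 and Inhba were not well above background on any array. Of sperm markers 4 of 7 were tested and 0 passed. With no adjustment, 0 of the granulosa and 1 of the sperm markers had a p under 0.05. The part of these cells and stages in the members' levels was not tested.

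The members lie in 3 places of the genome. The other measured genes between them, all on chromosome 12, rose as well. Among the nearest measured genes outside these places, rises were about as frequent as among all genes. On chromosome 12 the stretch from Gm8300 to Gm5662 spans 760.2 kb and holds 55 annotated genes, 17 of them protein coding and 38 pseudogenes, of which 6 had a probe. Besides the 3 members and BB287469 these were Gm16381 and the PRAME-like gene Pramel51, and both rose. Gm16381 read 0.86 higher on its brighter probe (SE 0.19, limma adjusted p = 0.0281) and 3.55 higher on the other (SE 0.31, limma adjusted p = 0.00175). The 2 probes of Gm16381 thus gave differences of unequal size. Pramel51 rose by 1.81 (SE 0.35, limma adjusted p = 0.0166). On its other probe it rose by 2.39 (SE 0.46, limma adjusted p = 0.0164), or by 3.01 without siControl replicate 1. How far the probes of Gm16381 and Pramel51 also read other genes of this stretch was not tested.

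Of the 24 nearest measured genes outside these places, 4 on each side, 2 rose and 2 fell, with a median of -0.35, against 6.65% of all genes higher and 10.5% lower. Both counts lay near those shares. The 24 include Gm5039, an Eif1a-like copy named above, whose difference did not pass. Gm7104, just beyond the chromosome 12 stretch, averaged 4.68 ± 0.55 in P150KD and -1.81 ± 2.34 in siControl (difference 6.49, SE 0.94, limma adjusted p = 0.00707). Its difference was 7.56 without siControl replicate 2 and 5.24 without siControl replicate 3. How far its probe also reads genes of the chromosome 12 stretch was not tested. Gm12789, next to Pramel19, averaged 2.21 ± 1.34 in P150KD and -4.81 ± 2.41 in siControl, where 1 of 3 arrays was well above background (difference 7.02, SE 1.16, limma adjusted p = 0.0107). With only the arrays well above background its difference was 4.5, and without siControl replicate 1 or 2 it was 5.88 or 8.28. Those that fell were Cep290, a centrosomal protein gene at chr10:100487548-100575671 (-1.22, limma adjusted p = 0.0361), and Leprot on chromosome 4 (-1.0, limma adjusted p = 0.0199). Mgat4c lies at chr10:101681487-102391851, far from Gm4340, with Slc6a15 measured between them. Mgat4c was not well above background on any siControl array. Its signal in P150KD was at least 7.48-fold higher, a difference that did not pass (limma adjusted p = 0.0776). The nearest measured genes can thus lie far from a member.

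**Figure D4:**
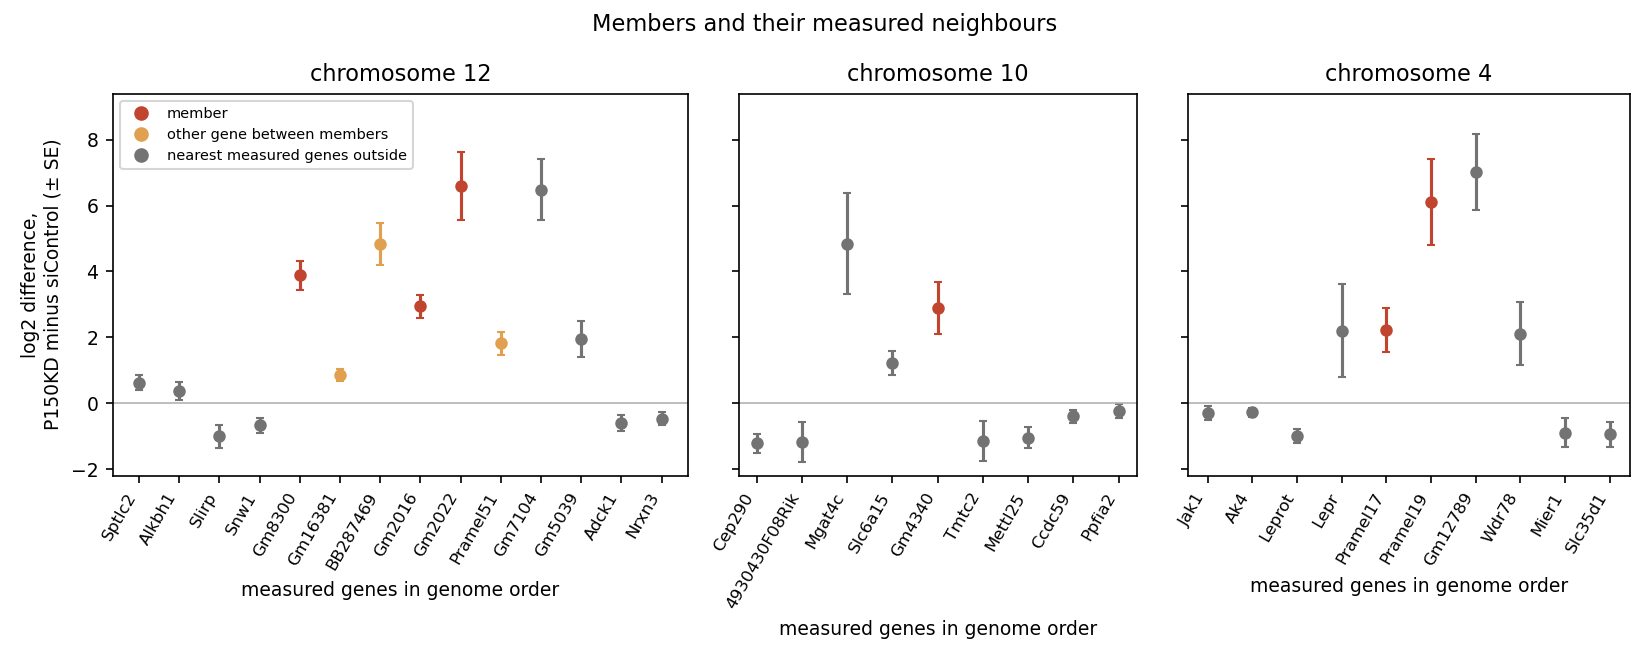
Log2 difference, P150KD minus siControl, with its SE, for members (red), other genes between members (orange) and the 4 nearest measured genes on each side (grey), in genome order on chromosomes 12, 10 and 4; each gene is shown by its brightest probe. Gm7104 and Gm12789 are the highest grey points, and most grey points lie below 0. Points of Gm12789, Pramel19, Mgat4c, Lepr and Wdr78 rest wholly or in part on siControl arrays that were not well above background. With only the arrays well above background, Lepr differed by 0.09 and Wdr78 by 0.94.

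The sequence shared by Gm4340 and Pramel17 was also looked for elsewhere. Of 75 other genes with GATTNAATC in the 250 bases before the start, 20 were tested, of which 4 rose and 2 fell, or 20% higher against 6.65% of all genes, with a median of 0.24. The letters were read from members chosen by this same contrast, and Pramel31 and Pramel20 were already counted among the PRAME-like genes above. Nothing is therefore read from this share. The risers were Pramel31, Pramel20, Gm13043 (4.11, SE 0.66, limma adjusted p = 0.00947) and AF067061 (4.19, SE 0.94, limma adjusted p = 0.0269; 4.81 without P150KD replicate 3), and those that fell were Cnih1 (-0.87, limma adjusted p = 0.0482) and Echdc2 (-0.68, limma adjusted p = 0.0365). Of 625 tested genes with TATAAG, 66 rose (10.6%) and 48 fell, with a median of -0.11. With both letter strings upstream, 1 of 7 tested genes rose. Of 25 other genes whose upstream stretch aligned to that of Gm4340 with at least 50% of its score against itself, 8 were tested and 1 rose, Gm12789. A match is a description of the letters and names no factor.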

How the data were processed

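Each array carried amplified RNA of 10 morulae, labelled with Cy3 after 2 rounds of linear amplification, per the labels. The authors' image analysis used Agilent Feature Extraction 10.5.1, per the submitters' processing notes. Per the file headers, the deposited processed signal is an intensity from which background was subtracted, with no scaling between arrays, and the spot and background signals are deposited intensity values. The other deposited columns used are 0 or 1 flags. The authors' series table, also deposited, has log2 values. Set against the scanner signals, these matched log2 of the processed signal after scaling to the 75th percentile and subtraction of the probe's median, and they served as an alternative. The medians of its columns ran from -0.215 to 0.0914.

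Spots of a probe were averaged (59305 spots, 55681 probes) and log2 signals were set relative to the 75th percentile of each array. Probes were named through RefSeq accessions, giving 27235 probes for 20660 symbols. Probes well above background on at least 3 of 8 arrays (30348 probes, 14601 genes) were tested with limma 3.58.1 in R 4.3.3 (a two-sided moderated test of the 2 groups with no covariate), adjusted by Benjamini-Hochberg over all tested probes, with a threshold of 0.05. The procedure was tested on simulated data. The brightest tested probe stood for a gene. Where no siControl array was above background, the fold is a bound set by the lowest signal well above background on each array. Promoter stretches came from RefSeq (GRCm38.p6) and were aligned with Biopython 1.88; tables used Python 3.11.15 and pandas 2.3.3 and figures matplotlib 3.10.9.

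The members and lists were chosen with earlier results of these data known. Named were all members, the general eIF1 and eIF1A genes, Chaf1a and Chaf1b. Also named were up to 4 genes of each other list by smallest p and the 5 genes most like the members. Genes named for their place, upstream letters or signal near background were chosen after their values were seen. Same-numbered arrays of the 2 groups did not deviate together (correlations -0.014, -0.0745 and -0.0168), so the replicate numbers were not taken as pairs. Alternatives were normexp (offset 50), quantile, median and housekeeping scaling, the series table, other filters on dim probes, averaging the probes of each gene, the replicate number or the slide column as a block, and leaving out each array. Differences of genes that are no member without each array, or on arrays above background only, were added after the data were seen.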

Additional observations from a re-analysis of the deposited data

Results flagged for a closer look

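Of 42 probes examined for a P150KD array standing apart from the other 4, 1 was found, and chance alone picks about 1 in 20 groups. Eif2b3, the gene of a subunit of the exchange factor eIF2B, read 3.11 on P150KD replicate 3, while the other P150KD arrays lay between 3.53 and 3.70, against 4.05 to 4.75 on the siControl arrays.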

How the results depend on the processing

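All tested member probes stayed higher in P150KD under every alternative run, and their median difference lay between 4.03 (normexp) and 5.67 (slide column block), and between 4.34 and 4.79 without one array; since the same contrast chose them, neither this direction nor their calls show stability. With a replicate block 0 probes passed in either direction, and so 0 members, 0 other Eif1a-like copies, 0 Pramel and oogenesin genes, 0 oocyte genes and 0 initiation genes; the numbers pair 3 of the 5 P150KD arrays at most. With the slide column block 442 probes rose and 271 fell, with 2 of the 6 members, 0 Pramel and oogenesin, 1 oocyte and 0 initiation genes passing. Over all probes 1907 rose and 2324 fell; 3475 rose and 614 fell with housekeeping scaling, 1487 fell with quantile and 1512 with median scaling, and without one array 1016 to 1770 rose and 690 to 1979 fell. Other Eif1a-like copies that rose numbered 2 with normexp, housekeeping scaling, probes above background on all 8 arrays or the mean of all probes, and 1 to 2 without one array. Of the general eIF1 and eIF1A genes 1 fell with normexp, with probes above background on all 8 arrays and with the mean of all probes. Initiation genes that rose numbered 2 with quantile, 3 with housekeeping scaling, 2 with probes above background on all 8 arrays and 1 with the mean of all probes; those that fell numbered 1 with quantile or with no filter, 0 with median or housekeeping scaling, and 0 to 2 without one array. Pramel and oogenesin genes that rose numbered 8 with median scaling or no filter and 4 to 12 without one array, and 1 fell with probes above background on all 8 arrays and with the mean of all probes. Oocyte genes that rose numbered 2 to 4 and those that fell 0 to 1 without one array. The cause of these shifts was not tested. Dim siControl signals limit the size of the larger member differences.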
